A study of Mus musculus with 17 samples.

Results

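Small RNAs (smRNAs) were counted in exosomes from the feces of IL-10 KO mice on a C57BL/6J background, a strain that lacks interleukin 10 and develops bowel inflammation. The comparison described here divides the 7 end-point libraries of the study by their own depth. Libraries 1, 3 and 7 had column totals under 75000 counts and are called shallow below, and libraries 2, 4, 5 and 6 lay at or above that value and are called deeper. These libraries were chosen by their total counts, so the 2 sets are not treatments and the totals themselves carry no test. The 7 libraries are part of 17 in the series, of which the other 10 are start-point libraries and were not used.

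All 7 libraries share genotype, time point and source (fecal exosomes), and the mice were bought at 4 weeks of age and housed individually. The labels do not give the age at the end-point. The shallow set held 2 male libraries and 1 female library, and the deeper set 3 male libraries and 1 female library. Libraries 1 and 2 carry the label of the same animal, mouse 1, and lie in different sets, so the 7 libraries came from 6 mice by their labels. Each library was made from 2 fecal pellets, from which exosomes were precipitated with a commercial reagent, so the vesicles of all gut cell types and of ingested material are pooled. Wild-type mice named in the protocols were not analysed here.

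A mature miRNA is a single-stranded RNA cut from a hairpin precursor, and either arm of the hairpin, named 5p or 3p, can be loaded into an Argonaute protein. Bases 2 to 8 of the mature strand form the seed, which pairs with target mRNAs. Mirtrons are miRNAs whose hairpin is a whole short intron released by splicing, and piRNAs are small RNAs that bind PIWI proteins and are best known from the germ line. Fecal exosomes carry miRNAs shed by the gut epithelium and by immune cells of the gut wall, among other sources.

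Shown first, as examples of each direction, are the sequences of the 5 miRNAs called higher and the 5 called lower with the smallest p for which RefSeq has a mature strand here. miR-669h-5p and a piRNA locus, described below, also had p-values in that range. The sequences are the RefSeq mature strands of GRCm38.p6, written 5′ to 3′ with the seed in capitals. The first 5 were higher in the shallow libraries.
miR-432: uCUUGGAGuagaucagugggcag
miR-6909-3p: uGCCUUCCccggccucccacag
miR-7014-5p: uUGGGUGCuguggaagggacag
miR-1898: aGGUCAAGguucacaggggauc
miR-3058-3p: uUCCUGUCagccgugggugcc
The next 5 were lower in the shallow libraries.
miR-9769-3p: uAGGGUCUguucuguguccucc
miR-6371: uUCAAGUGgcuugaagcucuucu
miR-465a-5p: uAUUUAGAauggcacugauguga
miR-142a-3p: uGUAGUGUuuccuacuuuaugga
miR-7094b-2-5p: uCUGGAGAggauacagggucuga
No seed is shared between any of these 10. Their GC content ran from 52.2% to 72.7% in the first 5 and from 34.8% to 54.5% in the next 5, and the 2 ranges overlap.

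The shallow libraries held 54747 counts in library 1, 32320 in library 3 and 63858 in library 7. The deeper libraries held 161862 counts in library 2, 116880 in library 4, 118475 in library 5 and 151044 in library 6. The totals just inside and just outside the threshold were thus 63858 and 116880, with no library between them. A count of 3, used here as the floor that a count of 0 allows, is 0.00928% of library 3 and 0.00185% of library 2. The deposited table covers 1439 mature miRNA names and 48 piRNA loci, and 1486 of these 1487 smRNAs had a count in at least 1 of these libraries. No 2 of these libraries agreed within sampling noise, with chi-square per degree of freedom of at least 14.1 for every pair.

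The 2 sets held different mixtures of smRNAs. Across smRNAs, the log2 CPM values (counts scaled to a common library size, here with TMM factors) of the 3 pairs of shallow libraries had a mean Spearman correlation of 0.616, with a range of 0.546 to 0.702. The 6 pairs of deeper libraries had a mean of 0.609, with a range of 0.508 to 0.674. The 12 pairs that cross the threshold had a mean of 0.226 and none exceeded 0.396. Libraries 1 and 2, which share a mouse label, correlated at 0.224, below every pair within a set. Library 6 was the deeper library nearest to the shallow ones, at 0.35, 0.30 and 0.40 with libraries 1, 3 and 7.

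Drawing every library at random to 32320 counts, the smallest total, left this pattern in place. The mean correlation was then 0.613 within the shallow set, 0.552 within the deeper set and 0.219 between them. These correlations run over smRNAs that share a library and its depth, and the division was proposed with the low correlations between the sets already known, so they are a description and carry no p. The first principal component held 49.6% of the variance, with shallow libraries from 30.4 to 38.0 and deeper ones from -38.0 to -11.6.

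**Figure D1:**
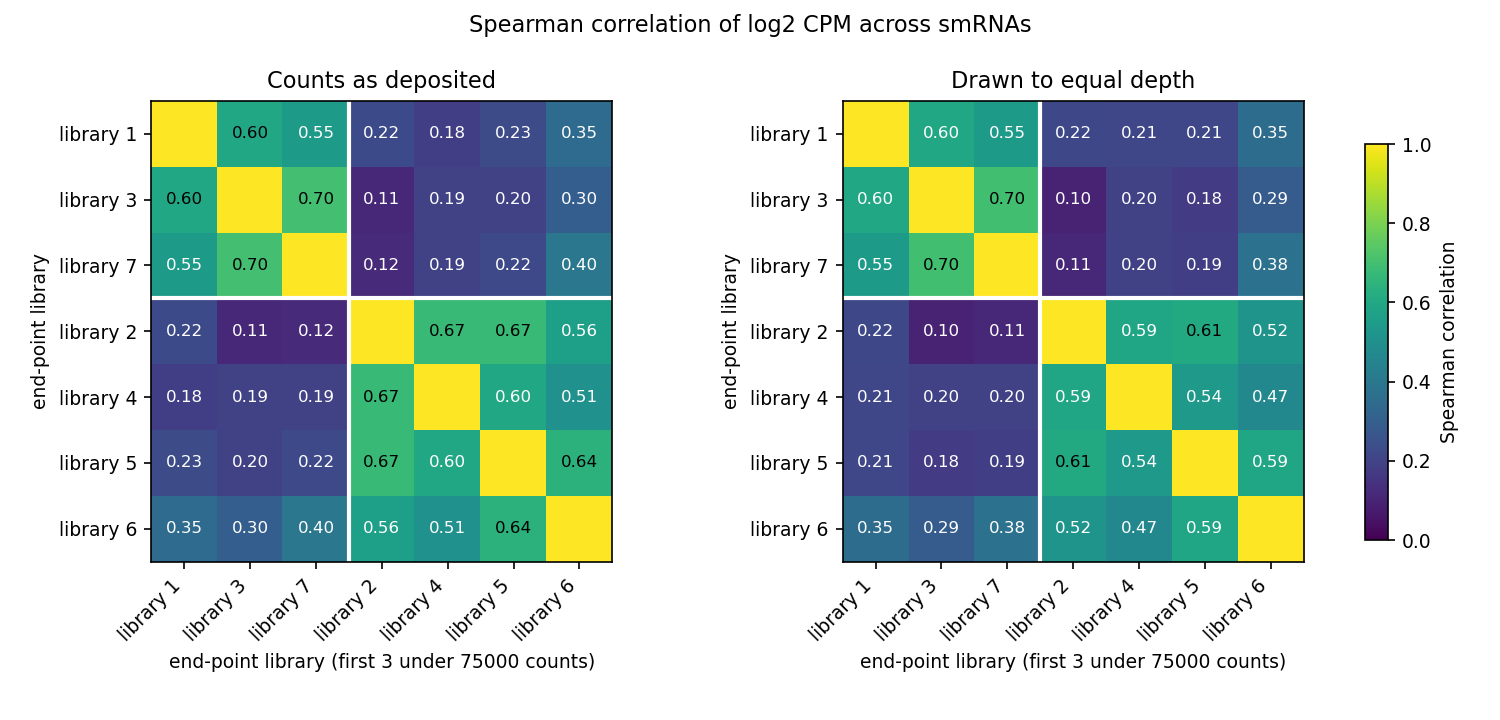
Spearman correlation of log2 CPM across smRNAs for each pair of end-point libraries, with counts as deposited on the left and drawn to 32320 counts on the right; white lines separate the 3 shallow libraries from the 4 deeper ones. Pairs within a set lie at 0.508 or above on the left, and pairs between the sets at 0.396 or below.

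The number of smRNAs with at least 1 count separated the sets in the deposited counts and not after the draw. Within each set it did not follow the total, since library 3 exceeded library 1 and library 2, the deepest, had the fewest of its set. As deposited it was 1043, 1166 and 1254 in libraries 1, 3 and 7, against 1377, 1401, 1414 and 1448 in libraries 2, 4, 5 and 6. At equal depth it was 1005, 1166 and 1202 in the shallow libraries and 1054, 1161, 1274 and 1279 in the deeper ones. The sets overlapped at equal depth, with means of 1124 ± 104.9 (SD, n = 3) and 1192 ± 106.9 (SD, n = 4) and a difference of -67.7 smRNAs. The exact two-sided permutation p over the 35 choices of 3 of 7 libraries was 0.457, adjusted to 0.588 over 9 such tests. The difference turned positive, at 89.25, when detection needed at least 2 counts and was 19 after a draw to 20000 counts, so no direction can be read from it. With 3 libraries against 4, this test cannot give a p below 0.0571.

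Counts were spread over more smRNAs in the shallow libraries. The 10 most abundant smRNAs of each library took 28.7%, 25.8% and 37.3% of its counts in libraries 1, 3 and 7, against 49.4%, 39.1%, 42.2% and 37.9% in libraries 2, 4, 5 and 6. The sets did not overlap, and the difference of -11.6 percentage points reached the smallest exact permutation p this design allows, 0.0571, which is 0.514 after adjustment over the 9 tests. It took 51, 74 and 29 smRNAs to make up 50% of the counts in the shallow libraries, and 11, 19, 16 and 21 in the deeper ones. The median CPM over listed smRNAs, here scaled to the column total alone, was 164, 217 and 157 in the shallow libraries and 49.4, 77.0, 110 and 105.9 in the deeper ones. The TMM factors, which scale for such differences in composition, were 1.60, 1.77 and 1.32 in the shallow set and 0.497, 0.678, 0.861 and 0.921 in the deeper set.

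**Figure D2:**
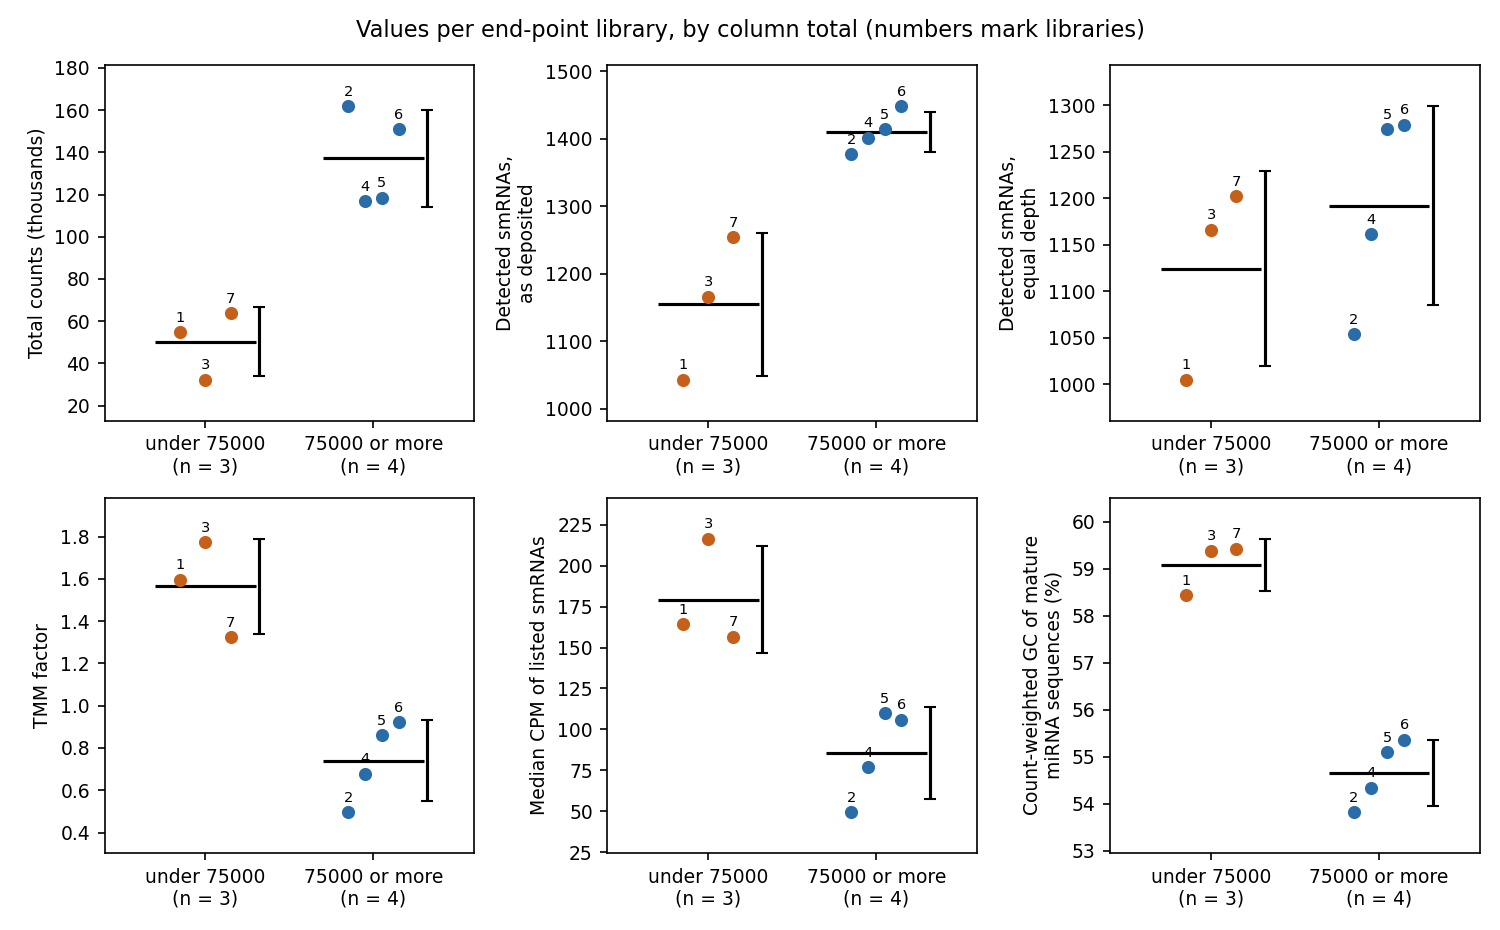
Total counts, detected smRNAs as deposited and at equal depth, TMM factor, median CPM and count-weighted GC for each end-point library, by column total; each point is 1 library with its number, horizontal lines are means and error bars are SDs (n = 3 and n = 4). The sets separate in every panel other than the detected smRNAs at equal depth, where 1005 to 1202 and 1054 to 1279 overlap; the vertical axes do not start at 0.

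The quasi-likelihood test of edgeR with TMM factors, fitted on these 7 libraries alone, called 14.9% of 1034 tested smRNAs at a Benjamini-Hochberg adjusted p under 0.05. The division was proposed with the low correlations between the sets already known. The adjusted p-values here and below thus describe these libraries and are not independent evidence of a difference between the sets. In the shallow libraries 68 were higher (6.58% of those tested) and 86 were lower (8.32%). Log2 fold changes, always shallow over deeper, ran from -13.56 to 6.70 among the called smRNAs, with a median of 3.11 among the higher and -4.36 among the lower. The 68 higher smRNAs made up 7.90%, 14.8% and 8.24% of the counts of libraries 1, 3 and 7, and between 0.183% and 0.708% of each deeper library. The 86 lower ones made up 1.06% to 1.52% of each shallow library, and 17.7%, 13.8%, 23.01% and 22.04% of libraries 2, 4, 5 and 6. Between the libraries labelled mouse 1, all 68 higher smRNAs had more CPM in library 1 than in library 2. Of the 86 lower ones, 82 had less. Both libraries entered the fit, 1 in each set, so this order is not independent of the calls and adds no evidence to them.

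These calls rest on few libraries and on the scaling. Without library 3, the shallowest, 0 smRNAs were called by edgeR, with 303 at an unadjusted p under 0.05 against 340 in the full fit and a smallest adjusted p of 0.0601. The count also moved to 33 without library 2, 87 without library 4, 77 without library 5 and 100 without library 7. TMM factors and column totals placed the median log2 fold change of all tested smRNAs 1.05 apart, at -0.27 and 0.78. The higher calls were 44.2% of all calls with TMM, 78.4% with column totals (222 calls), 36.4% with DESeq2 size factors and 25.5% with no filter. Both scalings gave 116 of the 68 higher and 86 lower calls, with the same direction. After the equal-depth draw, 104 of 512 tested smRNAs were called (20.3%), 52 in each direction, and 87 of the 93 original calls that could be tested there were kept.

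Values of single smRNAs below are CPM of the column total, in the order of libraries 1, 3 and 7 and then 2, 4, 5 and 6. On that scale, 27.1% of tested smRNAs had all shallow libraries above all deeper ones, and 7.45% had them all below. Among the called smRNAs, the sets did not overlap in all 68 of the higher and in 67 of the 86 lower ones. Since the fit uses the same libraries, non-overlap adds no evidence to a call.

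Among the smRNAs higher in the shallow libraries, miR-669h-5p, from the miRNA cluster in an intron of Sfmbt2, had the smallest p. Its level was 2064, 3899 and 3523 CPM in the shallow libraries and 18.5, 0, 25.3 and 6.62 CPM in the deeper ones, with 464 counts against 7. No shallow library came near a deeper one, and the log2 fold change was 6.70 ± 1.05 (SE, edgeR adjusted p = 0.0136). miR-432 stood at 2502, 2877 and 2145 CPM against 30.9, 17.1, 50.6 and 79.4 CPM, a log2 fold change of 4.73 ± 0.77 (edgeR adjusted p = 0.0136). RefSeq places its hairpin opposite an exon of the imprinted gene Rtl1 (chromosome 12, 109594956 to 109595030). The 3 shallow values of miR-432 lie close together, unlike those of miR-6909-3p.

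miR-6909-3p, from an intron of Plpp2 (chromosome 10, 79531029 to 79531090), was at 530, 3434 and 1268 CPM against 6.18, 25.7, 8.44 and 33.1 CPM. Its log2 fold change was 5.39 ± 0.90 (edgeR adjusted p = 0.0136). miR-7014-5p, within an exon of Ecm1 (chromosome 3, 95734911 to 95734973), was at 5133, 5848 and 3226 CPM against 18.5, 51.3, 177 and 99.3 CPM. In both, every shallow library was above every deeper one. miR-1898, in an intron of Zfr (chromosome 15, 12171492 to 12171574), had 804, 3713 and 3492 CPM against at most 92.8 CPM. miR-3058-3p, in an intron of Nudt4 (chromosome 10, 95559231 to 95559321), had 2776, 4455 and 2443 CPM against at most 169 CPM.

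1 piRNA locus was called higher, the copy of piR_020554 in an intron of Phf21a (chromosome 2, 92351039 to 92351069, if its name is read on GRCm38). It held 1680, 4053 and 2568 CPM in the shallow libraries and 24.7, 34.2, 84.4 and 72.8 CPM in the deeper ones, a log2 fold change of 4.62 ± 0.78 (edgeR adjusted p = 0.0136). The remaining 3 of the 10 with the smallest p were miR-497a-5p, a relative of miR-15 and miR-16 by its seed, miR-874-3p and miR-705. Their log2 fold changes were 3.88, 3.73 and 4.54, with shallow levels of 256 to 1112 CPM and deeper levels of 0 to 79.4 CPM. For all 10, the deeper libraries together held between 4 and 50 counts, so the deeper levels have wide counting error while the direction does not depend on a single count.

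Of the 86 smRNAs lower in the shallow libraries, 9 had no count there. These 9 passed the filter on level through the deeper libraries alone. Their direction was thus fixed before the test, and the calls add no evidence for it. The same limit holds, in either direction, for other smRNAs that reached the filter in 1 set only. miR-9769-3p, from an exon of Hspb6 (chromosome 7, 30552828 to 30552904), had 0 counts in each shallow library and 161, 257, 371 and 185 CPM in the deeper ones. Against the floor of 3 counts over the 3 shallow libraries, 19.9 CPM, it was at least 11.7-fold lower in the shallow set (edgeR adjusted p = 0.0136). Without library 1 or library 7 fewer counts set a higher floor, so this bound falls to 7.48-fold and 6.78-fold, and the bounds of the other smRNAs fall in the same proportion. miR-6371, in an intron of an antisense transcript on chromosome 6 (50572398 to 50572508), was also at 0 in all 3 and had 50, 18, 26 and 23 counts in the deeper ones, at least 10.7-fold lower. Both were found in every deeper library at 18 counts or more.

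miR-142a-3p, the hallmark miRNA of blood-forming cells, was at 0 in all 3 shallow libraries and at 513, 1069, 430 and 79.4 CPM in the deeper ones. It was at least 24.9-fold lower (edgeR adjusted p = 0.0206), and its hairpin lies in Mir142hg on chromosome 11 (87756864 to 87756927). After the equal-depth draw it still had 16, 30, 15 and 3 counts in libraries 2, 4, 5 and 6 against 0 in each shallow library. The X-linked miR-465 genes gave a pair of calls that share the seed shown above for miR-465a-5p. miR-465a-5p had 18.3, 0 and 0 CPM against 266, 68.4, 295.4 and 556 CPM, and with 1 count in the shallow set it was 46.8 times lower, with a 95% counting interval of 8.29 to 1859. miR-465b-5p had 36.5, 0 and 0 CPM against 8421, 5784, 734 and 801 CPM. Such near-identical genes can exchange reads in counting, so their values are not independent.

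miR-7094b-2-5p, from an intergenic hairpin on chromosome 12, was at 0, 30.9 and 0 CPM against 327, 51.3, 1123 and 781 CPM. miR-3070-3p was at 0, 61.9 and 31.3 CPM against 414, 915, 270 and 444 CPM. miR-7669-5p had no count in the shallow set and 30.9 to 287 CPM in the deeper one, at least 7.52-fold lower. miR-7063-3p, in an intron of Ap2a2, was at 0, 30.9 and 0 CPM against 3843, 102.7, 9808 and 867 CPM, so its deeper libraries differ widely among themselves. In each of these 4 the observed CPM of the shallow libraries lay below that of all deeper ones. A count of 3 is 54.8, 92.8 and 47.0 CPM in libraries 1, 3 and 7. The order is thus not settled where a deeper level is that low. Examples are miR-7669-5p in library 2, at 30.9 CPM, and miR-7094b-2-5p in library 4, at 51.3 CPM. This limit holds for every smRNA said not to overlap that has such low deeper levels.

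**Figure D3:**
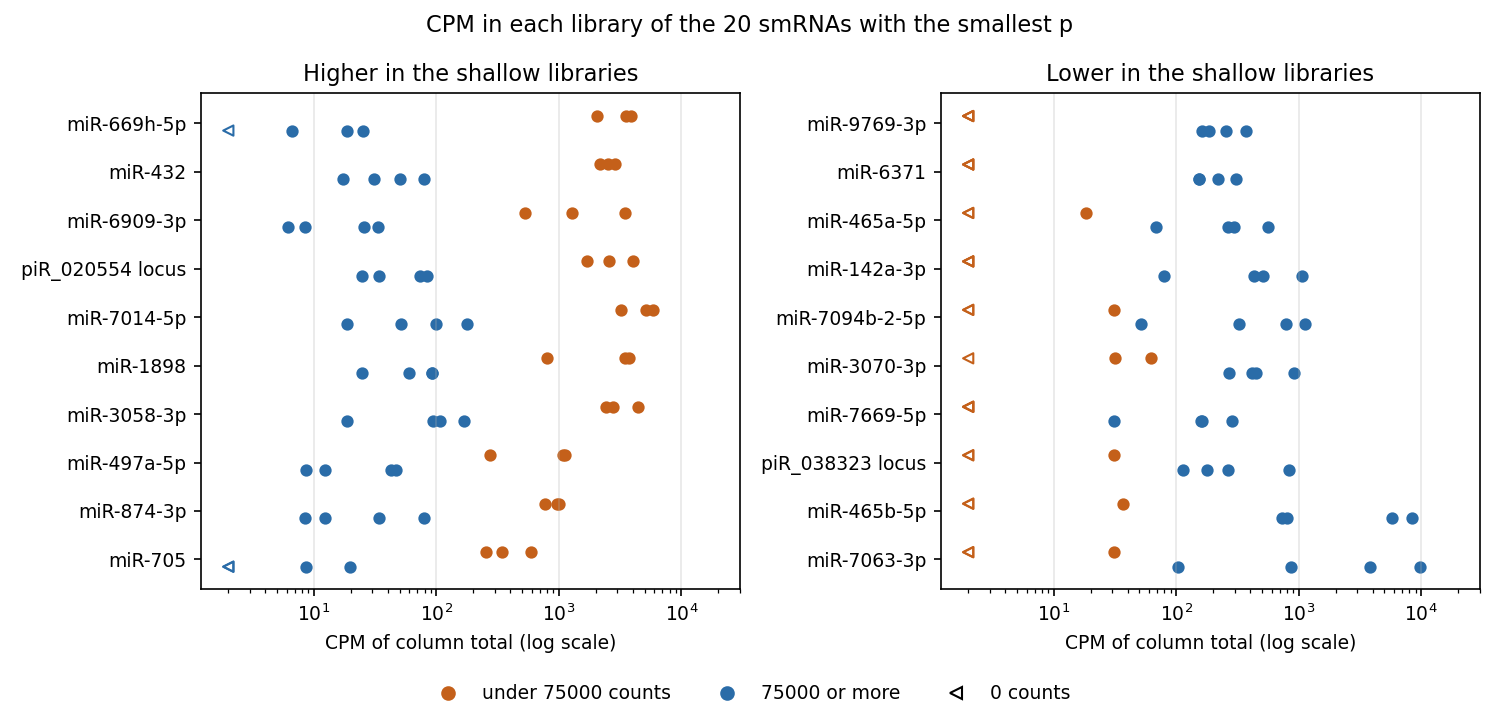
CPM of the column total on a log axis in each end-point library for the 10 smRNAs with the smallest p in each direction; filled points are libraries and open triangles at the left edge are libraries with 0 counts. In observed CPM, every shallow library lies above every deeper one on the left and below on the right.

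Over the whole table, 75 smRNAs had no count in any shallow library, and 44 of these were found in all 4 deeper libraries. In the other direction, 4 smRNAs had no count in any deeper library, of which 1 had none in any of the 7. The deeper set holds 548261 counts against 150925 in the shallow set, and detection depends on that total. At equal depth 573 smRNAs were found in all 7 libraries, 25 in all 4 deeper and no shallow library, and 8 in all 3 shallow and no deeper library. Of the 86 lower calls, 24 had at most 3 counts in each shallow library.

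Of the 9 smRNAs that had 1 of the 5 highest mean CPM values in either set, 2 passed the test and 6 overlapped between the sets. miR-6959-3p, from an intron of Sbf1, took 37755, 121349 and 57597 CPM in the shallow libraries and 2663, 3508, 12703 and 15294 CPM in the deeper ones. The sets do not overlap, yet the log2 fold change of 2.12 ± 1.11 did not pass (edgeR adjusted p = 0.199). The passenger arm miR-24-1-5p was at 2776, 1114 and 1488 CPM against 9335, 14177, 23169 and 108366 CPM, a log2 fold change of -5.30 ± 1.47 (edgeR adjusted p = 0.0336). miR-1899 was at 1991, 1300 and 846 CPM against 27245, 3807, 76953 and 20703 CPM, a log2 fold change of -5.64 ± 1.53 (edgeR adjusted p = 0.0325). For both the lowest deeper library stood above the highest shallow one, and a single deeper library held the largest part.

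The piRNA locus piR_002643 on chromosome 3 (5843705 to 5843732) ranged from 1900 CPM in library 1 over 17822 in library 3 to 85220 in library 7, and from 57210 to 138749 CPM in the deeper libraries. miR-1956, miR-125a-3p, miR-351-5p, miR-7078-5p and miR-6916-5p overlapped between the sets and were not called. Among these, miR-1956 (log2 fold change -0.07) and miR-351-5p (0.13) changed sign with the scaling or filter.

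Markers of cell types give the origin of the exosomes to the extent a bulk sample can. In such samples, fewer vesicles from a cell type and less of a miRNA per vesicle cannot be told apart. Of 12 miRNAs listed for intestinal epithelium, 10 were in the table and 9 were tested, and 0 were called by edgeR in either direction, against 14.9% of all tested smRNAs. At an unadjusted edgeR p under 0.05 4 of them were lower and 0 higher, where 340 of all 1034 were below it in either direction. DESeq2 called 5 lower, where it called 33.3% of all 1034, 228 of them lower. limma-voom called 0 of the list and 15.5% of all. The list's median log2 fold change was -1.73, where that of all tested smRNAs was -0.27. miR-192-5p, a main epithelial miRNA of the gut, was at 219.2, 92.8 and 235 CPM against 179, 282, 279 and 291 CPM. miR-200b-3p, which represses the ZEB factors that turn epithelial cells mesenchymal, was at 493.2, 30.9 and 595 CPM against 35672, 14434, 853 and 126 CPM and was not called (edgeR adjusted p = 0.0639). The list's summed share of counts was 0.303% to 1.48% in the shallow set and 0.621% to 3.83% in the deeper set. The highest value, in library 2, was mostly miR-200b-3p, and that of library 1 mostly miR-215-5p. miR-215-5p, a relative of miR-192, was at 13298, 1300 and 1300 CPM against 859, 42.8, 506 and 5700 CPM and overlapped between the sets (log2 fold change 0.65, not called).

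Of 10 leukocyte miRNAs, 8 were in the table and 6 tested, with miR-142a-3p the 1 called member by edgeR. That is 16.7% of the tested members, beside 14.9% of all smRNAs. DESeq2 called 4 lower, where it called 228 of all 1034 lower. The median log2 fold change of the tested members was -1.74, where that of all tested smRNAs was -0.27. The list's share of counts was 0.138% to 0.183% in the shallow libraries and 0.125% to 0.424% in the deeper ones. The myeloid miRNA miR-223-3p was at 91.3, 309 and 313 CPM against 167, 1737, 110 and 232 CPM and was not called, so 1 leukocyte marker was at 0 in the shallow set while another was present in every library. miR-181a-5p, active in developing lymphocytes, was at 913, 526 and 375.8 CPM against 55.6, 180, 177 and 166 CPM, without overlap, and was not called (log2 fold change 1.01, edgeR adjusted p = 0.283). The lymphocyte miRNA miR-150-5p was at 110, 0 and 94.0 CPM against 92.7, 282, 101.3 and 59.6 CPM. miR-21a-5p, which rises in inflamed tissue, was at 457, 371 and 313 CPM against 290, 796, 405 and 497 CPM. The part of leukocyte or epithelial content in the difference between the sets was not tested.

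miR-145a, made with miR-143 in smooth muscle, was split by arm. The 5p arm was at 328.8, 371 and 110 CPM against 18.5, 8.56, 8.44 and 13.2 CPM, a log2 fold change of 3.09 ± 0.83 (edgeR adjusted p = 0.0322). The 3p arm was at 438, 278 and 251 CPM against 3033, 744, 2828 and 1185 CPM, a log2 fold change of -3.85 ± 1.05 (edgeR adjusted p = 0.0325, and 0.0612 on column totals). The 2 arms of 1 hairpin thus went opposite ways between the same libraries, without overlap in either. The partner miR-143-3p was at 2174, 4455 and 11776 CPM against 296.5, 274, 1283 and 3390 CPM and was not called.

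Of 221 hairpins with both arms tested, 60 had 1 arm called and 2 had both, namely miR-145a and miR-615. Of all arms in these hairpins 14.5% were called, close to the 14.9% of all smRNAs. Both arms of miR-615, from the Hoxc cluster, were higher in the shallow set, with log2 fold changes of 3.03 for the 5p arm and 2.74 for the 3p arm. Across these 221 hairpins the log2 fold changes of the 2 arms had a Spearman correlation of 0.02, a description over arms that share libraries.

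Among other tissue markers, miR-122-5p, the dominant miRNA of liver, was at 18.3, 402 and 172 CPM against 371, 3388, 3216 and 2728 CPM. Its log2 fold change was -4.66 ± 1.22 (edgeR adjusted p = 0.0322), and the sets overlap, since library 3 lay above library 2. It was the 1 called of 2 tested on the liver list, or 50% beside 14.9% of all smRNAs. The other, miR-122-3p, was not called (log2 fold change -5.10, edgeR adjusted p = 0.0562). Its sets barely separate, at 313 CPM in library 7 and 315 CPM in library 2. miR-9-3p, a neural miRNA, had no count in the shallow set and 173, 830, 456 and 33.1 CPM in the deeper one, at least 16.9-fold lower, or 10.1-fold without library 4. It was the 1 called member of 3 tested on the neuron list, where miR-124-3p (log2 fold change -0.10) and miR-138-5p (0.51) overlapped between the sets. Its opposite arm miR-9-5p did not reach the filter, with 73.1, 186 and 548 CPM against 55.6, 0, 76.0 and 26.5 CPM. Of the lists for striated muscle, red cells and stroma, 3, 2 and 0 members were tested. None of these 5 was called by edgeR, DESeq2 or limma-voom, and 0 had an unadjusted edgeR p under 0.05.

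The broadly expressed families are given beside the 14.9% called among all tested smRNAs. Of 8 let-7 members in the table, which repress growth and pluripotency genes, 6 were tested and 2 were lower in the shallow libraries, or 33.3%. let-7a-5p was at 18.3, 0 and 47.0 CPM against 191.5, 171, 151.9 and 86.1 CPM (edgeR adjusted p = 0.0322, and 0.0885 on column totals). let-7i-5p was at 0, 30.9 and 0 CPM against 123.6, 299.5, 101.3 and 119 CPM (edgeR adjusted p = 0.0206). let-7b-5p, at 110, 433.2 and 673 CPM against 389, 248, 202.6 and 338 CPM, overlapped between the sets. Close let-7 members differ by few bases, so reads can be split between them.

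Of the miR-17 to 92 family, 5 of 9 members in the table were tested and miR-92b-3p (20%) was called, at 712, 928 and 611 CPM against 24.7, 77.0, 67.5 and 152.3 CPM (edgeR log2 fold change 2.20, adjusted p = 0.0414). Of 24 other broadly expressed guide arms in the table, 15 were tested and miR-148a-3p was called, or 6.67%. It had no count in the shallow set and 130, 163, 101.3 and 26.5 CPM in the deeper one, at least 5.14-fold lower. The median log2 fold change of the broad list was -0.74 with TMM and 0.21 with column totals, so it changes sign with the scaling while staying below the median of all smRNAs in both.

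The mirtron-series miRNAs, numbered as 1 block in the nomenclature and mostly taken from short introns, held 29.3%, 32.3% and 22.8% of the counts in the shallow libraries and 23.5%, 25.6%, 29.6% and 20.6% in the deeper ones. Of their 185 listed 5p arms, 12 were higher and 11 lower, or 16.2% of those tested. Of their 153 listed 3p arms, 2 were higher and 13 lower, or 14.02% of those tested, and miR-6909-3p was among the 2. Both shares lay near the 14.9% of all smRNAs. On column totals 32 of the 5p arms were higher and 5 lower, and 13 of the 3p arms were higher and 9 lower. Of all tested smRNAs, 174 were higher and 48 lower on that scale. The balance of the 3p arms thus turns over with the scaling. The medians were -0.03 for 5p arms and -0.50 for 3p arms with TMM, and 0.93 and 0.53 with column totals, where all tested smRNAs lie at 0.78. The difference between the arms was not tested.

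The Sfmbt2 intron families had 11 of 19 listed members tested, with miR-669h-5p and miR-467b-5p higher and miR-669m-3p lower, or 27.3% called beside 14.9% of all smRNAs. miR-467b-5p was at 1680, 2259 and 2427 CPM against 6.18, 34.2, 67.5 and 285 CPM. At equal depth miR-467b-5p was not called (edgeR adjusted p = 0.0520), and miR-669m-3p did not reach the filter there. miR-669m-3p was at 36.5, 92.8 and 62.6 CPM against 655, 1044, 211 and 152.3 CPM. In both, the sets do not overlap, and members of these repeated families share most of their sequence.

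Of 66 members listed by name for the imprinted Dlk1-Dio3 cluster, 43 were tested and 5 were lower: miR-127-5p, miR-299b-3p, miR-496b, miR-654-3p and miR-758-5p. That is 11.6% of those tested, beside 14.9% of all smRNAs. With TMM none was called higher by edgeR, although 6 were at an unadjusted p under 0.05. limma-voom called 0 higher and DESeq2 4, where they called 65 and 116 of all 1034 higher. On column totals edgeR called 6 higher and 3 lower, beside 174 higher and 48 lower of all smRNAs, so the balance turns over with the scaling. The calls of miR-127-5p (edgeR adjusted p = 0.103) and miR-758-5p (0.0823) are lost on that scale. miR-654-3p was at 36.5, 0 and 204 CPM against 6889, 496.2, 1899 and 397 CPM. miR-496b is placed on chromosome 19 in an intron of Gnaq by RefSeq, outside the cluster. miR-432, which was not on the list, lies beside miR-127 on chromosome 12 and was higher, whereas miR-3070-3p, also near and off the list, was lower. The list's share of counts was 2.85% to 2.95% in the shallow libraries and 8.16%, 3.36%, 8.95% and 2.32% in the deeper ones, and its median of -0.57 with TMM became 0.42 with column totals. Of the miR-290 cluster, typical of embryonic stem cells, 7 of 12 members were tested and miR-290a-3p was lower, or 14.3% beside 14.9% of all smRNAs. It was at 0, 61.9 and 78.3 CPM against 86.5, 145.4, 473 and 622 CPM, and its call is lost on column totals (adjusted p = 0.0721).

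The 48 piRNA loci took 0.533%, 3.46% and 14.2% of counts in libraries 1, 3 and 7, and 12.0%, 20.2%, 7.23% and 10.3% in libraries 2, 4, 5 and 6. The sets overlapped because of library 7, and the difference of -6.39 percentage points had an exact permutation p of 0.286. Of the 26 loci tested, 3 were lower and the piR_020554 locus was higher, or 15.4% called beside 14.9% of all smRNAs. The median log2 fold change of the 26 was -1.97, where that of all tested smRNAs was -0.27. DESeq2 called 9 of them lower and 1 higher, beside 228 lower and 116 higher of all 1034 smRNAs. The piR_002961 locus on chromosome 4 (93821215 to 93821245) had no count in the shallow set and 27054, 5784, 8.44 and 768 CPM in the deeper one, at least 475-fold lower by its summed counts, most of which came from library 2, and at least 103.2-fold without that library. The other 2 were copies of piR_038323 on chromosomes 13 and 14, each with 1 count in the shallow set. Copies of 1 piRNA name may share reads, and how such reads were assigned is not given in the sources used here.

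**Figure D4:**
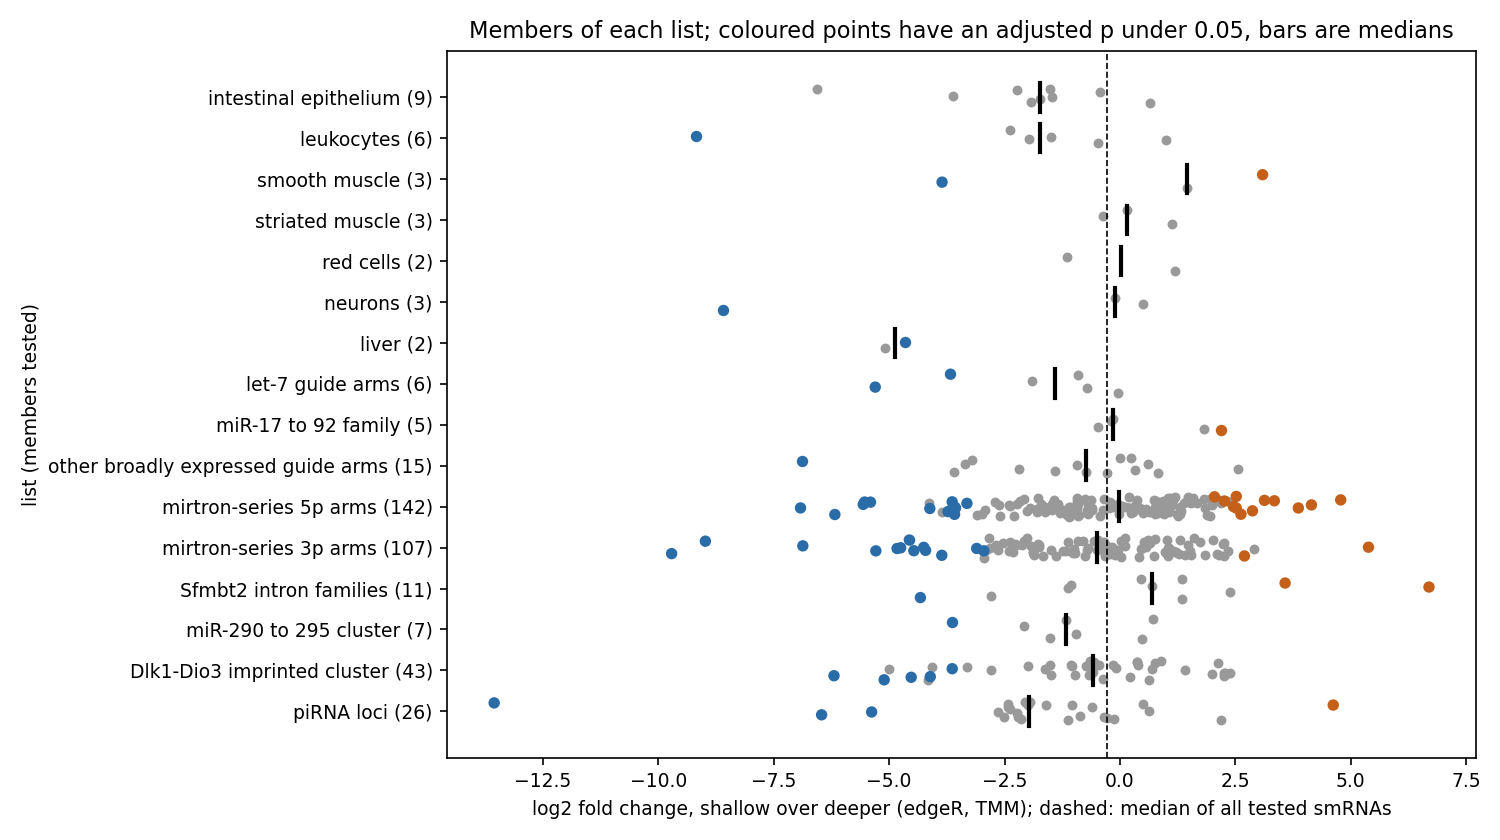
Log2 fold change, shallow over deeper, of each tested member of the marker, family, cluster and piRNA lists; grey points were not called, coloured points were called higher (orange) or lower (blue), short bars are list medians and the dashed line is the median of all tested smRNAs, -0.27. The 9 epithelial members are all grey, and the mirtron 3p arms show 13 blue and 2 orange points, where column totals would call 9 lower and 13 higher.

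GC content, which the division did not use, went with the difference. Mature sequences from RefSeq matched 877 of 1008 tested miRNAs, or 87.0%. Weighted by counts, the GC content of the matched miRNAs was 58.4%, 59.4% and 59.4% in libraries 1, 3 and 7, and 53.8%, 54.3%, 55.1% and 55.4% in libraries 2, 4, 5 and 6. Mature strands with over 60% GC took 49.6%, 51.6% and 50.3% of the matched counts in the shallow libraries and 26.2%, 22.96%, 24.2% and 33.2% in the deeper ones. Neither measure overlapped between the sets, and the shallow libraries lay within 1 to 2 percentage points of each other.

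The same order held without the most abundant smRNAs. Without the 34 smRNAs in the top 10 of any library, the weighted GC content was 56.7%, 56.4% and 56.3% against 52.9%, 52.5%, 53.0% and 54.2%. Within the mirtron series it was 60.8%, 64.6% and 63.1% against 56.9%, 57.1%, 58.5% and 59.1%, and among the other miRNAs 57.4%, 56.4% and 57.9% against 52.6%, 53.0%, 53.4% and 54.1%. Counting each detected miRNA once at equal depth gave 55.7%, 55.3% and 55.2% against 53.4%, 54.0%, 54.2% and 54.6%. In all 4 measures the lowest shallow library was above the highest deeper one.

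Over all tested smRNAs, 6.58% were called higher and 8.32% lower. By class, 10 of 50 tested miRNAs over 70% GC (20.0%) were higher in the shallow libraries, with a median log2 fold change of 1.15. In that class edgeR called 0 lower, with 1 at an unadjusted p under 0.05. DESeq2 called 2 lower and 13 higher there, beside 228 lower and 116 higher of all 1034 smRNAs. From 60% to 70% GC, 19 of 235 were higher (8.09%) and 10 lower (4.26%). From 40% to 50% GC, 9 of 250 were higher (3.60%) and 33 lower (13.2%), with a median of -0.94. From 50% to 60% GC, 15 of 266 were higher (5.64%) and 18 lower (6.77%), with a median of -0.09. At 40% or less 4 of 76 were higher (5.26%) and 12 lower (15.8%), with a median of -0.64. The lowest class thus did not have the lowest median. The shares called higher from 60% to 70% and at 40% or less lay near the 6.58% of all smRNAs. The median GC content was 60.9% among the 57 matched higher calls, 50.0% among the 73 lower ones and 54.5% among the 747 not called. miR-6909-3p, at 72.7% GC in its sequence above, and miR-142a-3p, at 34.8%, stand near the 2 ends.

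Across the 877 miRNAs, GC content and log2 fold change had a Spearman correlation of 0.289, and of 0.304 over the 418 that could be tested at equal depth. Leaving out each library in turn gave 0.255 to 0.313. The miRNAs share libraries and hairpin families, so this is a description with no p. Length did not follow the fold change, with a correlation of -0.02 and a median of 22 bases among both higher and lower calls, and U was the first base of 43.9% and 45.2% of them. Whether RNA input, extraction, library preparation or counting moved with depth in these libraries was not tested, since the labels give 1 range of input, 50 to 150 ng, for all libraries and no sequencing batch.

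**Figure D5:**
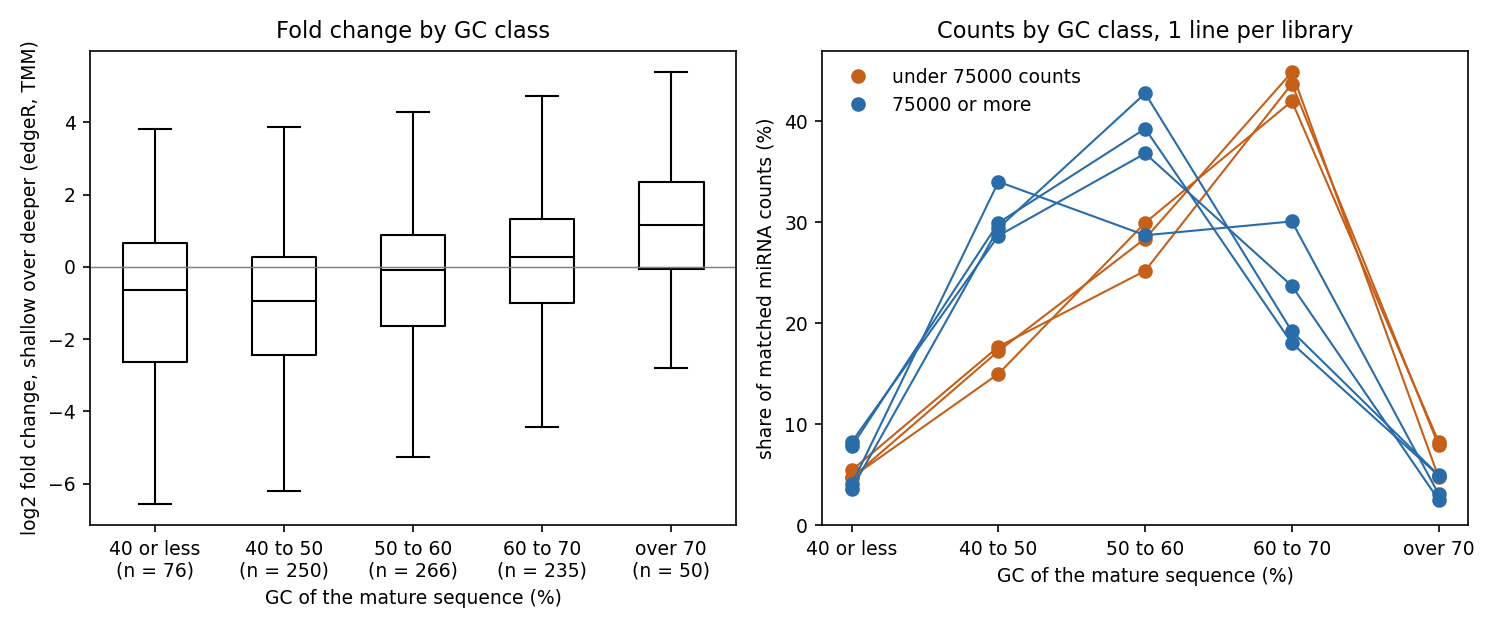
Left, log2 fold change (shallow over deeper) of tested miRNAs by GC class of the mature strand, with boxes for quartiles, lines for medians and whiskers to the last point within 1.5 box lengths, outliers not drawn. Right, share of matched miRNA counts in each GC class, 1 line per library. Medians are -0.64 at 40% GC or less, -0.94 at 40% to 50%, -0.09 at 50% to 60%, 0.28 at 60% to 70% and 1.15 above 70%. The shallow libraries hold 42.0% to 44.9% of counts at 60% to 70% GC against 18.03% to 30.1% in the deeper ones.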

How the data were processed

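The deposited table holds raw read counts per smRNA and library, named so by the authors, and the submitters' processing notes name GRCm38 and bcl2fastq. The aligner, the counting tool and the use of the kit's molecular identifiers for this table are not given in the sources used here. The piRNA names carry positions without a build.

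The 7 end-point libraries were divided at 75000 counts. The division, lists and members were chosen with earlier results of these data known, so the comparison describes these libraries. Counts were fitted with edgeR 4.0.16 (glmQLFit and glmQLFTest, R 4.3.3) with filterByExpr, TMM factors and Benjamini-Hochberg adjustment over all 1034 tested smRNAs. These held 95.9% of counts, and the common biological coefficient of variation was 0.791. Levels printed are CPM of the column total, and log2 CPM for correlations used TMM and a prior count of 2. Equal depth is 1 seeded draw to 32320 counts. Single values were compared by exact permutation over libraries. Counting intervals are exact 95% intervals and, like the floor of 3 counts, cover counting error only. The p-values take libraries 1 and 2, which share a mouse label, as separate samples.

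Named are the 10 smRNAs with the smallest p in each direction, the 5 with the highest mean CPM in each set, and called list members, of which the mirtron series is given by counts; other names were chosen after their values were seen. Lists were described by counts and medians, with no set test. Sequences and hairpin positions are from RefSeq GRCm38.p6 and host genes from GENCODE vM21. The test was also run on simulated counts, and no support for the calls is drawn from that run. Alternatives were other size factors, filters and draws, DESeq2 1.42.0, limma-voom (limma 3.58.1) and sex as a covariate. Further alternatives were male libraries alone, miRNAs alone and each library left out. In a separate fit the log2 total took the place of the shallow and deeper sets and was not a covariate beside them.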

Additional observations from a re-analysis of the deposited data

Results flagged for a closer look

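In 12 of 56 measures, or 21.4%, 1 library lay far from the other 6. Most of these measures are CPM of smRNAs chosen by their p or level, and all share the same libraries. The nominal rate of about 1 in 20 by chance is thus no fair reference, and the flags are a description.

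Library 2 held the highest epithelial share, 3.83% of its counts against 1.75% in the next library. It also held 27054 CPM of the piR_002961 locus, where library 4 followed with 5784 CPM, and 6889 CPM of miR-654-3p, where library 5 followed with 1899 CPM. Library 4 had the highest leukocyte share, 0.424% against 0.183% in the next library. Its levels of both piR_038323 copies stood out, at 838 CPM on chromosome 13 against 266 CPM in the next library and 394 CPM on chromosome 14 against 110 CPM. let-7i-5p in library 4 was at 299.5 CPM, with 123.6 CPM next.

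Library 5 stood out for miR-1899, at 76953 CPM against 27245 CPM, and for miR-7063-3p, at 9808 CPM against 3843 CPM. Library 6 held 108366 CPM of miR-24-1-5p, where the next library had 23169 CPM. In the shallow set, library 3 held 3434 CPM of miR-6909-3p against 1268 CPM in library 7, and library 7 held 60384 CPM of miR-1956 against 26011 CPM in library 1. The part of these single libraries in the differences between the sets was not tested beyond leaving each out.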

How the results depend on the processing

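No alternative reversed any of the 40 named called smRNAs, although 6 of them were called in every alternative that tested them, other than leaving out a library, and 0 without library 3. The 40 were named because they were called in these same libraries, so the lack of a reversal adds no evidence to the calls. The count of calls, 68 higher and 86 lower in the main test, became 344 with the DESeq2 Wald test and 35 among male libraries alone. A fit on the log2 column total, in place of the 2 sets, called 32. That fit tests the total itself and does not adjust the sets for depth. The count of calls ran from 0 to 161 when each library was left out. Of the 9 single values, 6 kept their direction throughout. The difference in detected smRNAs turned to 89.25 with detection at 2 or more counts and to 19 after the draw to 20000 counts. Leaving out each library moved the difference in leukocyte share from -0.0665 to 0.0328 percentage points and in broad guide arms from -0.157 to 0.277. The log2 fold change of miR-1956 became 1.00 on column totals and 0.28 after the draw, and ran from -1.41 to 0.27 with libraries left out. That of miR-351-5p became -0.036 with DESeq2 size factors and with the Wald test and -0.081 with no filter, and ran from -0.48 to 0.75. Its slope per log2 unit of the total was -0.33, signed so that a positive slope means more at lower totals. The causes were not tested. No paired analysis was possible because the sets share only mouse 1 by the labels and no replicate numbers. With totals from 32320 counts, a level under 3 counts cannot be told from 0.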
